A study of Ovis aries with 36 samples.

Results

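The genes described here encode the transport machinery and the axoneme of the cilium. They were taken by symbol from a gene count matrix of cultured sheep ruminal epithelial cells, as every gene whose name begins with IFT, BBS, DNAH, DNAI, TCTN or CFAP followed by a number, or with RSPH. The rule used names only and no measured value, but it was chosen with earlier results of these data known. It found 99 of 35223 genes: 16 IFT, 8 BBS, 3 TCTN, 13 DNAH, 5 DNAI, 7 RSPH and 47 CFAP genes.

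Serum was withdrawn for 2 h while 100 nM dexamethasone, which synchronizes circadian clocks, was present, and a medium with volatile fatty acids (VFAs) at pH 7.2 followed. Grain medium, named for a grain diet, contained 71.1 mM acetate, 20.1 mM propionate, 16.0 mM butyrate, 1.1 mM isobutyrate, 5.3 mM isovalerate and 1.7 mM valerate, and its total is given as 115.78 mM. For Hay medium the acids were 60.8 mM acetate, 14.6 mM propionate, 9.2 mM butyrate, 1.0 mM isobutyrate, 3.0 mM isovalerate and 1.2 mM valerate, with 89.79 mM as the total given. RNA was sequenced from 3 libraries of each medium at 6 time points 4 h apart, T0 to T20, which are 24 h to 44 h in the submitters' count. All groups shared the dexamethasone step, acetate, propionate and butyrate were added as sodium salts so that sodium differed too, and a culture free of these acids was not analysed here. Whether replicates are separate cultures or animals is not stated, and the p-values therefore measure only how far these libraries spread, which may be technical.

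A cilium is a projection of the cell surface built on a microtubule axoneme that grows from a basal body. Intraflagellar transport (IFT) trains carry cargo along it: kinesin-2 moves them to the tip and dynein-2 brings them back, IFT-B and IFT-A complexes couple the cargo to the motors, and the BBSome, built from BBS proteins, moves membrane proteins out of the cilium. Tectonic proteins at the transition zone form part of the gate at the ciliary base. Most cultured cells, including many epithelial cells, can form a single immotile primary cilium, which needs IFT, BBSome and gate but lacks dynein arms, radial spokes and a central apparatus. Those structures, to which most DNAH, DNAI, RSPH and CFAP proteins belong, drive the beating of motile cilia and sperm tails. Primary cilia are taken apart before cells divide.

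Depth was similar throughout, with 52397135 to 68120879 counts per library. Values are given as CPM, the deposited counts scaled to a common library size, after TMM scaling, which corrects for differences in library composition, and differences as log2 of Grain minus Hay. They are not corrected for gene length and serve to compare a gene between libraries, not one gene with another. Markers of several cell types were read beside the labelled cell type. Epithelial genes were present, with means in Grain and Hay of 28.3 and 23.1 CPM for EPCAM, 44.2 and 65.8 CPM for CDH1, and 83.3 and 69.6 CPM for KRT5. KRT5 ranged widely between Grain libraries, from 25.7 to 170 CPM. The differentiation keratins KRT1 and KRT4 were at or near 0 in all libraries. Of 9 basal keratinocyte markers 5 were higher and 4 lower in Grain under the test described below, and they summed to 785.7 to 1428 CPM in Grain and 954.7 to 1213 in Hay. The 5 tested differentiated keratinocyte markers were all lower (57.2 to 104.2 against 125.5 to 148.2 CPM), and of 7 simple epithelial markers 1 was higher and 5 lower (167 to 253.5 against 279.5 to 333.9 CPM). The 12 fibroblast markers were 7 higher and 5 lower in Grain, and summed to 76860 to 130500 CPM in Grain libraries and 68740 to 93350 CPM in Hay libraries. They include FN1, VIM and collagens, which cultured epithelial cells can also make, and PDGFRA, PDGFRB, THY1, DCN, LUM, POSTN and TWIST1. The fibroblast sum lay far above the sums of the epithelial lists in both media, and the levels of its single genes are not given here. These markers do not settle the cell type, and whether the cultures held fibroblasts was not tested. Leukocyte markers summed to 3.87 to 5.68 CPM in Grain and 5.37 to 7.73 in Hay, and endothelial markers to 14.4 to 24.7 and 9.73 to 12.8. The part of these markers in the results below was not tested. In bulk RNA, fewer cells of a type and less RNA per cell cannot be told apart.

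Of the 99 genes, 94 passed the low-count filter and were tested, and 57 reached 5 CPM in a medium while 15 stayed under 1 CPM in both. DNAH14, CFAP107, RSPH6A, CFAP97D1 and CFAP144 failed the filter, with 15, 38, 151, 9 and 119 counts over all 36 libraries. The library kit keeps no strand, so the reads of overlapping genes cannot be told apart, and 47 of the 99 genes overlap another annotated gene. The overlap is named below for some of these genes only. Because a gene could pass on the medium where it was higher, counts below are of tested genes and do not describe all 99.

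Over the mean of the 6 time points, 29 tested cilium genes were higher in Grain than in Hay and 48 were lower, at an adjusted p under 0.05. The media differed throughout the transcriptome: 81.8% of the 22488 tested genes passed the same threshold, 37.9% as higher and 43.9% as lower in Grain. The 77 calls of 94 cilium genes are therefore near the background. The direction differed by role, but the roles also differ in level, as given below. Transport and gate genes (IFT, BBS and TCTN) numbered 14 higher and 8 lower of 27, with a median log2 difference of 0.07, and axoneme genes (DNAH, DNAI, RSPH and CFAP) 15 higher and 40 lower of 67, with a median of -0.28. The median of all tested genes was -0.07. Scaling to total counts moved the median of all genes to -0.19, and on that scale transport and gate genes numbered 7 higher and 16 lower with a median of -0.05, axoneme genes 8 higher and 45 lower with a median of -0.40, and all cilium genes 15 higher and 61 lower. That scaling shifts all genes down together, so transport and gate genes have no direction apart from the scaling, and the axoneme genes' lower calls under it add no support.

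Low-level genes as a whole ran lower in Grain. Among tested genes under 1 CPM, the median difference was -0.71 for 13 cilium genes and -0.59 for 6731 other genes. From 1 to 5 CPM it was -0.35 for 27 cilium genes and -0.22 for 4032 others, from 5 to 25 CPM 0.04 for 30 and 0.05 for 5011, and at 25 CPM and over 0.03 for 24 and 0.13 for 6620. Axoneme genes fill the low levels, with 15 of 72 under 1 CPM against 0 of 27 transport and gate genes. At least 5 CPM in a medium was reached by 31 of 72 axoneme genes and 26 of 27 transport and gate genes. Other genes at the low levels ran lower too, so the split by role cannot be read apart from level. The part of level in the direction was not tested. In 22 cilium genes all 18 libraries of one medium lay above all 18 of the other, and 27.2% of all tested genes did so.

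**Figure D1:**
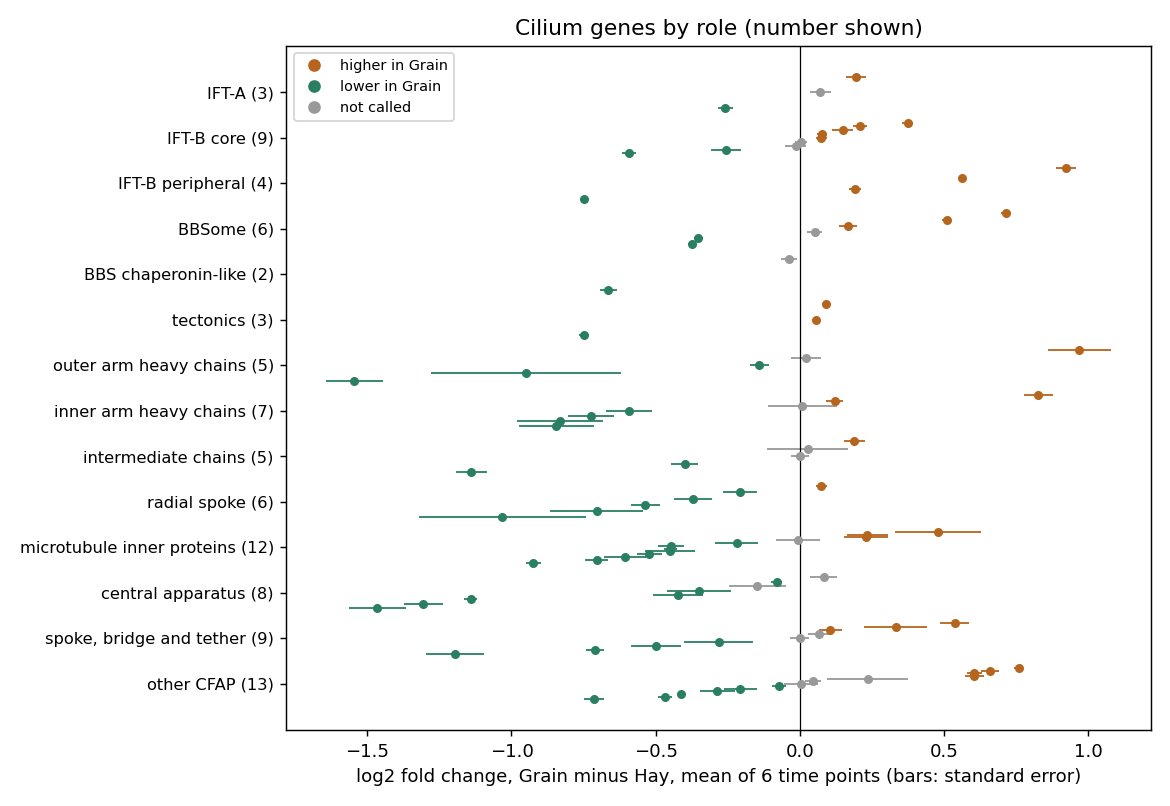
Log2 difference, Grain minus Hay, over the mean of 6 time points (x axis, bars are the standard error) for the tested cilium genes grouped by role (y axis, number of genes in brackets), coloured by call. CFAP47 and CFAP97D2, near 0 in Grain, are left out. Genes of the IFT, BBS and tectonic roles lie on both sides of 0, whereas no central apparatus gene was higher.

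Within the IFT-B complex, subunits moved apart. IFT80 was lower and IFT57 and IFT20 higher in Grain, although all belong to the peripheral part of the same complex. IFT57, which binds kinesin-2, measured 118.0 to 144.5 CPM in Grain libraries (median 130.2) and 82.4 to 104.0 in Hay libraries (median 87.1). IFT80 measured 104 to 152.5 CPM in Grain (median 134) and 206.5 to 231 in Hay (median 217). IFT20, which also works at the Golgi in sending membrane proteins to the cilium, measured 21.1 to 27.3 CPM in Grain (median 24.7) and 9.70 to 18.7 in Hay (median 12.6). For each of these genes the libraries of the media did not overlap. The log2 differences were 0.56 ± 0.014 (SE) for IFT57, -0.75 ± 0.013 for IFT80 and 0.92 ± 0.034 for IFT20, with adjusted p of 1.28e-29, 1.81e-34 and 3.3e-24. IFT20 overlaps POLDIP2, whose difference was 0.18. IFT172, the largest peripheral subunit, rose by 0.19 ± 0.021 with overlapping libraries.

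The IFT-B core showed the same spread. IFT81, which with IFT74 binds tubulin, measured 22.4 to 36.6 CPM in Grain (median 29.6) and 39.9 to 50.03 in Hay (median 44.1), again without overlap. Its log2 difference was -0.59 ± 0.024 (adjusted p = 6.74e-23). Its partner IFT74 stood at 0.08 ± 0.018 (adjusted p = 0.000186), and it overlaps LRRC19, whose difference was 1.02. IFT88, a core subunit needed for cilium assembly, was 0.37 ± 0.019 higher, IFT52 0.21 ± 0.024 and IFT22 0.15 ± 0.037, and IFT25 was lower at -0.26 ± 0.052. IFT27 and IFT46 were at -0.02 and 0.00 and did not pass. Of the IFT-A genes, IFT122 was lower at -0.26 ± 0.026, IFT43 higher at 0.20 ± 0.034, and IFT140 was at 0.07 with an adjusted p of 0.0607. Over all 16 IFT genes, 9 were higher, 4 lower and 3 did not pass, with a median of 0.08 that became -0.05 with 5 higher and 8 lower under total-count scaling.

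IFT subunits listed under other names gave a similar mixture, 3 higher and 3 lower of 6. WDR19, an IFT-A subunit, was higher in Grain at 117.7 ± 7.52 CPM against 79.5 ± 2.60 (SD, n = 18 each), and TULP3, which links IFT-A to membrane cargo, at 58.7 ± 1.62 against 41.0 ± 2.57. CLUAP1, an IFT-B subunit, was lower, at 23.5 ± 1.86 against 36.9 ± 2.33. Their log2 differences were 0.57 ± 0.015, 0.52 ± 0.016 and -0.66 ± 0.023, with adjusted p of 1.68e-28, 9.69e-27 and 3.42e-25.

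The motors of the trains moved both ways as well. Of 11 motor genes 5 were higher and 5 lower. KIFAP3, the accessory subunit that joins the kinesin-2 motor subunits, was at 65.0 ± 7.13 CPM in Grain and 150.1 ± 5.28 in Hay (-1.21 ± 0.015, adjusted p = 3.66e-39), while the motor subunit KIF3A was at 255.0 ± 4.88 and 195.9 ± 7.33 (0.38 ± 0.012, adjusted p = 1.21e-26). In dynein-2, DYNC2LI1, its light intermediate chain, was lower at -1.14 ± 0.022 and the heavy chain DYNC2H1 at -0.50 ± 0.024, while the intermediate chain DYNC2I1 was higher at 1.18 ± 0.037. KIF17, a homodimeric kinesin-2, was at 3.35 ± 0.561 against 0.952 ± 0.181 CPM. In each of these 6 genes all Grain libraries lay on one side of all Hay libraries. Under total-count scaling the motors numbered 4 higher and 5 lower.

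BBS genes also went both ways. BBS5, the BBSome subunit that binds phosphoinositides, measured 49.0 to 58.0 CPM in Grain (median 52.7) and 29.6 to 35.5 in Hay (median 31.8). BBS4, which ties the BBSome to centriolar satellites, measured 67.2 to 79.5 (median 73.4) against 47.3 to 55.1 (median 51.6). BBS9, a scaffold of the BBSome, measured 47.6 to 57.5 (median 53.2) against 64.4 to 75.9 (median 67.8). BBS5 and BBS4 lay wholly higher in Grain and BBS9 wholly lower, and BBS9 overlaps an unnamed locus that was 0.47 higher. The log2 differences were 0.72 ± 0.017 for BBS5, 0.51 ± 0.015 for BBS4 and -0.37 ± 0.015 for BBS9 (adjusted p = 2.59e-30, 1.44e-27 and 5.23e-23). BBS7 was lower at -0.35 ± 0.016 and BBS2 higher at 0.17 ± 0.031, and BBS1 was at 0.05 with an adjusted p of 0.0647. Of the chaperonin-like proteins that assemble the BBSome, BBS10 measured 8.05 to 11.9 CPM in Grain (median 10.5) and 14.5 to 17.9 in Hay (median 16.5), a log2 difference of -0.66 ± 0.029 (adjusted p = 3.82e-22), and BBS12 was at -0.04 (adjusted p = 0.189). Over 8 genes, 3 were higher, 3 lower and 2 did not pass. The median was 0.01, and was -0.03 with DESeq2 size factors and -0.11 with total counts.

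Among 6 further BBSome genes, LZTFL1, a regulator of BBSome traffic, was the furthest apart at 28.2 ± 2.06 CPM in Grain and 50.1 ± 1.75 in Hay (-0.83 ± 0.020, adjusted p = 4.57e-30). ARL6, the GTPase that recruits the BBSome to membranes, was lower at -0.30 ± 0.017. In all 2 were higher and 3 lower, and under total-count scaling 0 and 3.

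TCTN1 stood apart from the other tectonic genes. It measured 37.1 to 46.4 CPM in Grain (median 41.6) and 51.9 to 86.6 in Hay (median 69.2), with no overlap and a log2 difference of -0.75 ± 0.017 (adjusted p = 9.13e-31). It overlaps HVCN1, whose difference was -0.02. TCTN2 and TCTN3 measured medians of 44.9 and 81.9 CPM in Grain against 43.2 and 75.0 in Hay, with overlapping libraries, and differences of 0.06 ± 0.015 and 0.09 ± 0.015. These differences turned to -0.065 and -0.031 under total-count scaling, and TCTN2 did not pass with DESeq2 size factors (adjusted p = 0.157). Of 21 other transition zone genes, 9 were higher, 10 lower and 2 did not pass, with a median of -0.10, and 6 and 11 under total-count scaling. TMEM17 and INVS were lower at -0.77 ± 0.018 and -0.58 ± 0.016, and TMEM231 was higher at 0.61 ± 0.016.

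**Figure D2:**
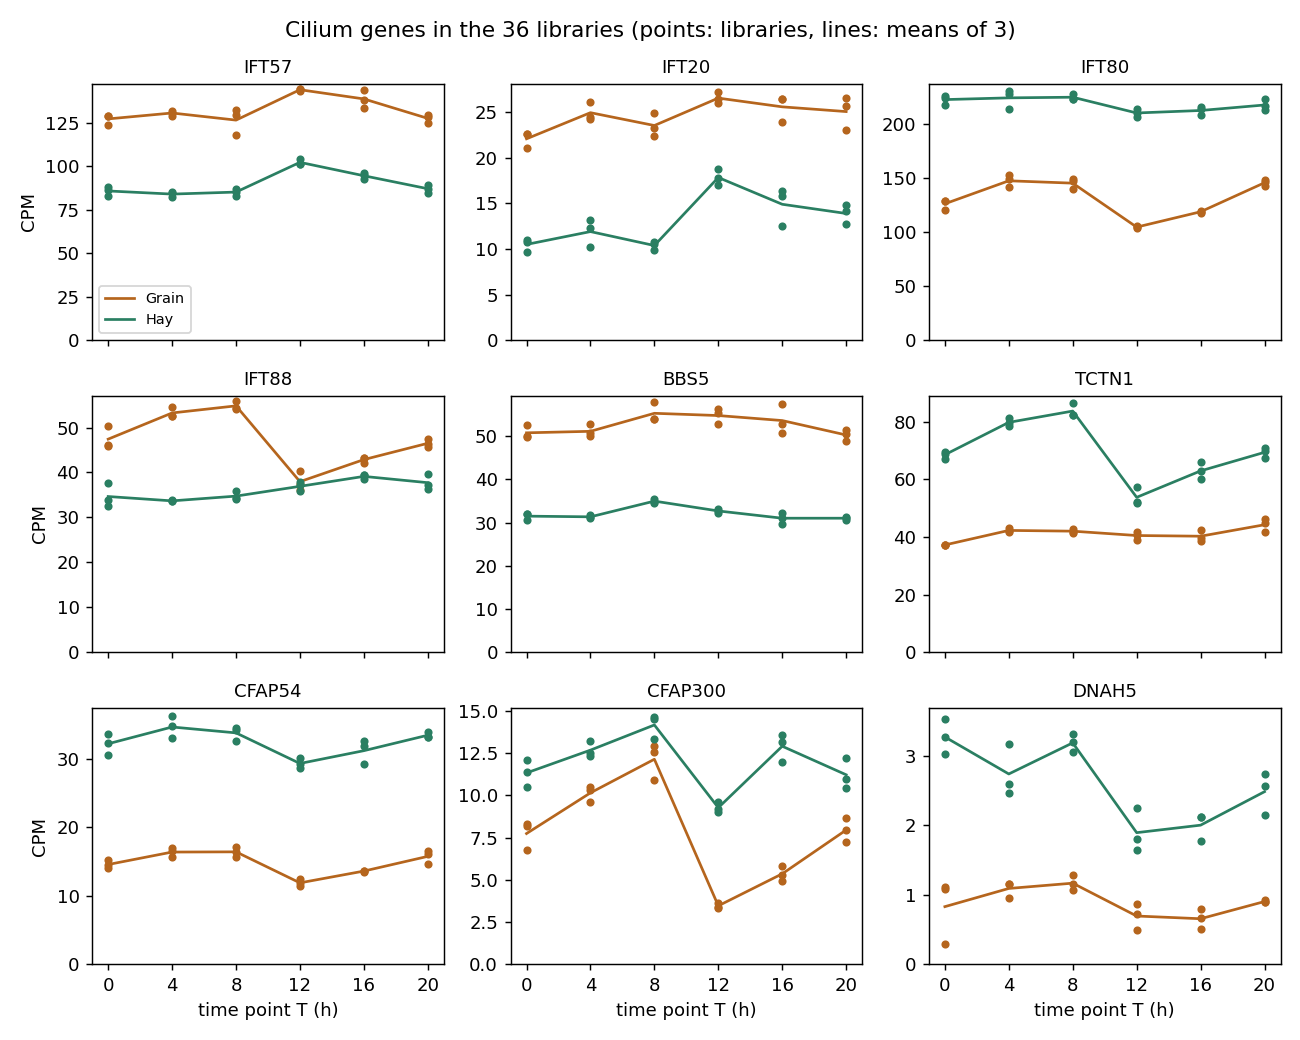
CPM (y axis, from 0) against time point (x axis, h) for 9 cilium genes in Grain (brown) and Hay (green), with 1 point per library and lines through the means of 3. IFT80, TCTN1, CFAP54 and DNAH5 lie lower in Grain at every time point, IFT57, IFT20 and BBS5 lie higher, and the media meet at T12 for IFT88.

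Dynein heavy chains, the motors of the axonemal arms, were mostly lower in Grain and at low level. Of 12 tested, 3 were higher, 7 lower and 2 did not pass, with a median of -0.37. DNAH5, an outer arm heavy chain whose loss stops ciliary beating, measured 0.287 to 1.29 CPM in Grain (median 0.909) and 1.64 to 3.53 in Hay (median 2.58). The libraries did not overlap, and the log2 difference was -1.55 ± 0.099 (adjusted p = 7.79e-17). DNAH9, another outer arm heavy chain, went the opposite way, from 0.683 to 1.53 CPM in Grain (median 1.07) and 0.336 to 0.934 in Hay (median 0.554), with some overlap and a difference of 0.97 ± 0.11 (adjusted p = 7.25e-10). In the inner arms, DNAH12 was higher at 3.68 to 8.11 CPM (median 4.81) against 2.40 to 3.63 (median 2.89), without overlap (0.83 ± 0.050, adjusted p = 1.13e-17), and DNAH6 was lower at 0.141 to 1.06 (median 0.594) against 0.620 to 1.38 (median 1.09), with overlap (-0.83 ± 0.15, adjusted p = 3.47e-06). DNAH2, DNAH3 and DNAH10, picked after their values were seen, were also lower, at -0.85, -0.72 and -0.59. DNAH7 measured medians of 23.8 and 22.2 CPM, with a difference of 0.12 ± 0.029 that was -0.001 under total-count scaling, and DNAH11 was lower at -0.14 ± 0.032. DNAH17 and DNAH1, at 0.02 and 0.01, did not pass.

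Of the dynein intermediate chains, DNAI3 was lowest in Grain relative to Hay. It measured 0.721 to 3.46 CPM in Grain (median 2.24) and 2.88 to 6.21 in Hay (median 4.53), overlapping over all times but not within any time point, with a difference of -1.14 ± 0.055 (adjusted p = 1.27e-20). DNAI4 was at -0.40 ± 0.048 and DNAI1, which belongs to the outer arm, at 0.19 ± 0.035. DNAI4 overlaps MIER1, whose difference was 0.23. DNAI1 missed the threshold under total-count scaling (adjusted p = 0.0844). DNAI2 and DNAI7 were at 0.03 and 0.00 and did not pass.

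Radial spokes connect the outer doublets to the central pair. Of 6 tested RSPH genes, 5 were lower and 1 higher, with a median of -0.45, and all 6 were lower under total-count scaling. RSPH1, a spoke head protein, measured 2.08 to 3.54 CPM in Grain (median 2.78) and 3.09 to 4.69 in Hay (median 4.03), with overlap over all times (-0.54 ± 0.050, adjusted p = 3.05e-12). It overlaps SLC37A1, which was at -1.40. RSPH10B was lower at -0.37 ± 0.066 and RSPH9, another head protein, at -0.21 ± 0.059. RSPH9 overlaps MRPS18A, at 13.9 CPM in Grain and 17.3 in Hay, a difference of -0.32. RSPH3, a stalk protein that also binds signalling kinases, was the only one higher, with medians of 26.3 and 25.0 CPM and a difference of 0.07 ± 0.020. It was -0.05 under total-count scaling and did not pass with DESeq2 size factors.

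CFAP genes of the central apparatus, the projections of the central pair, were 0 higher and 7 lower of 9. CFAP54 measured 11.4 to 17.2 CPM in Grain (median 14.9) and 28.6 to 36.2 in Hay (median 32.8). CFAP221 measured 0.444 to 0.937 (median 0.553) against 1.22 to 2.32 (median 1.68). Both lay wholly lower in Grain, at -1.14 ± 0.022 and -1.47 ± 0.099 (adjusted p = 2.52e-33 and 4.24e-16). CFAP70, of the central apparatus as well, measured 1.64 to 5.64 CPM in Grain (median 3.04) and 4.67 to 10.0 in Hay (median 7.99), a difference of -1.31 ± 0.067 (adjusted p = 8.36e-20), with overlap over all times. CFAP46 and CFAP99, at 0.08 and -0.15, did not pass. HYDIN, 1 of several central apparatus genes outside the naming rule, was at 5.19 ± 0.456 and 6.02 ± 0.745 CPM (-0.21 ± 0.045). The others, such as SPAG6, SPAG16 and SPAG17, are counted among the motile axoneme partners below, and their values are not given here.

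Microtubule inner proteins, which line the inside of the doublets, numbered 3 higher and 8 lower of 12 tested, or 1 and 8 under total-count scaling. All 14 genes summed to 68.2 to 106.3 CPM in Grain libraries against 111 to 151.6 in Hay libraries, without overlap. The sum rests mostly on CFAP20, with means of 33.6 CPM in Grain and 46.0 in Hay, and CFAP68, with 24.1 and 44.7. It does not describe the 14 genes alike. CFAP68 measured 13.1 to 36.3 CPM in Grain (median 24.0) and 31.4 to 54.4 in Hay (median 45.0), a difference of -0.93 ± 0.026 (adjusted p = 4.35e-28), but it overlaps FDXACB1, which was at -1.37, and the reads of the pair cannot be told apart without strand. CFAP20, CFAP45 and CFAP126 lay wholly lower in Grain, at -0.45 ± 0.022, -0.52 ± 0.044 and -0.71 ± 0.041. CFAP45 overlaps TAGLN2, at 75.4 CPM in Grain and 83.0 in Hay, a difference of -0.135. Of the CFAP genes described here, all but CFAP36, CFAP54, CFAP70, CFAP100, CFAP221 and those named for their course over time were picked after their values were seen. CFAP90, CFAP141 and CFAP276 were higher, at 0.23, 0.48 and 0.23.

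Spoke, bridge and tether genes were mixed, 3 higher and 4 lower of 9, or 1 and 5 under total-count scaling. CFAP206, of the spoke base, was lower at 7.45 to 13.9 CPM in Grain (median 11.2) against 15.6 to 19.4 in Hay (median 17.5), without overlap (-0.71 ± 0.032, adjusted p = 1.33e-21). CFAP100, which tethers inner arm dyneins, was lower at 0.621 to 1.68 CPM (median 1.13) against 1.56 to 3.70 (median 2.63), overlapping over all times (-1.20 ± 0.10, adjusted p = 4.25e-13). CFAP61 was higher at 0.54 ± 0.051.

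The remaining 14 tested CFAP genes, with no settled place in the axoneme here, were 4 higher and 7 lower. CFAP36, an ARL3-binding protein found in primary cilia too, measured 146.0 to 176.5 CPM in Grain (median 163) and 81.8 to 116.4 in Hay (median 93.5), with no overlap (0.76 ± 0.015, adjusted p = 8.09e-33). CFAP20DC was also wholly higher, at 17.2 to 29.0 (median 23.0) against 12.8 to 16.6 (median 14.9), a difference of 0.61 ± 0.026. CFAP119 rose by 0.66 ± 0.032 but overlaps PHKG2, which rose by 0.59. CFAP96 and CFAP300 were lower at -0.41 ± 0.015 and -0.71 ± 0.036, and CFAP97 at -0.47 ± 0.023. CFAP97 overlaps SNX25, whose difference was 0.685. Of 94 tested cilium genes, 9 were called with a fitted difference of 2-fold or more, all 9 lower in Grain. They were DNAH5, DNAI3, RSPH4A, CFAP47, CFAP54, CFAP70, CFAP100, CFAP221 and CFAP97D2. Of all tested genes, 21.7% were called and at least 2-fold in either direction, and the share in the lower direction alone was not counted. CFAP47 and CFAP97D2 had 0 counts in 14 and 13 of 18 Grain libraries, so no fold is given for them. The fit of CFAP97D2 is unreliable: its sign held at only 3 of 6 time points, its standard error was 1.1, and it overlaps RASA3, at 50.3 and 31.3 CPM.

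Lists of related genes were read in the same way, by count and without a test of the list. Of 52 tested partners of the motile axoneme, such as dynein assembly factors and nexin bridge proteins, 14 were higher, 33 lower and 5 did not pass, with a median of -0.34. CCDC65, a nexin-dynein subunit, was at 1.63 ± 0.740 and 7.85 ± 1.02 CPM (-2.38 ± 0.074, adjusted p = 1.19e-26), and SPAG1, a dynein assembly factor, was at 84.0 ± 5.35 and 52.9 ± 2.83 (0.67 ± 0.017, adjusted p = 1.1e-29). These lists and the 99 genes were chosen with results of the same data known. The direction in the list therefore does not stand as separate support.

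Markers of multiciliated cells moved both ways. Of 15 measured, 4 were higher, 6 lower and 5 did not pass, none was at 0 in all libraries, and their sum was 56.9 to 64.6 CPM in Grain libraries and 53.2 to 58.9 in Hay libraries. FOXJ1, the regulator of motile cilia, was at 0.799 ± 0.177 and 0.794 ± 0.177 CPM (log2 difference 0.00 ± 0.11, adjusted p = 0.992), and MCIDAS, which commits cells to the multiciliated fate, at 2.44 ± 0.478 and 2.66 ± 0.446 (adjusted p = 0.137). CDC20B, used in centriole amplification, was at 11.4 ± 2.01 and 3.63 ± 0.598 (1.64 ± 0.044, adjusted p = 1.05e-28). Their part in the axoneme result was not tested.

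Among 13 transcription factors linked to ciliary genes, 5 were higher, 4 lower and 4 did not pass. RFX2 was at 50.1 ± 2.48 and 22.1 ± 1.13 CPM (1.18 ± 0.020, adjusted p = 1.02e-34) and RFX3 at 41.2 ± 2.09 and 30.8 ± 1.96 (0.42 ± 0.020, adjusted p = 7.61e-21), both RFX proteins that bind the X-box of ciliary genes. GLIS3 was lower at -1.10 ± 0.032.

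Basal body and assembly genes were mostly higher, 17 of 22 against 4 lower, with a median of 0.33 that was 0.21 under total-count scaling. EHD1, which shapes the ciliary vesicle, was at 112.2 ± 12.5 and 38.9 ± 4.78 CPM (1.53 ± 0.020, adjusted p = 3.24e-38), and CCP110, a cap that holds back cilium growth, at 223.8 ± 6.92 and 143.8 ± 3.56 (0.64 ± 0.013, adjusted p = 5.83e-33). CEP164, a distal appendage protein, was at 28.6 ± 1.76 and 13.8 ± 1.34 (1.05 ± 0.030, adjusted p = 6.29e-28). Several of these genes also serve centrosomes in dividing cells.

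Genes that promote cilium disassembly, most with roles in mitosis, were 6 higher and 2 lower of 8. AURKA was at 13.9 ± 2.14 and 3.40 ± 0.495 CPM (2.03 ± 0.046) and NEK2 at 22.9 ± 3.43 and 5.73 ± 0.644 (2.00 ± 0.031), whereas HDAC6, which removes acetyl groups from axonemal tubulin, was lower at -0.63 ± 0.035 and NEDD9 at -0.48 ± 0.016. All 14 proliferation markers were higher in Grain, with a sum of 330.7 to 479.6 CPM against 223.4 to 257.7 in Hay, and under total-count scaling 13 of them passed. The part of cell division in the ciliary differences was not tested.

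Of 21 genes for ciliary signalling, 11 were higher, 7 lower and 3 did not pass. PTCH1, the hedgehog receptor and a target of the pathway, was higher at 26.7 ± 2.31 and 20.4 ± 0.995 CPM (0.39 ± 0.025, adjusted p = 1.1e-16), and GLI1, another target, was lower at 3.80 ± 0.808 and 4.41 ± 0.518 (-0.23 ± 0.070, adjusted p = 0.00324). Under total-count scaling the list was 7 higher and 10 lower.

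At single time points the counts followed the same background. At T0 58 cilium genes were called (62.8% of all genes), 19 higher and 39 lower, with a median of -0.18 against -0.05 for all genes. At T4 50 were called (57.8% of all), 24 higher and 26 lower with a median of 0.00, and at T8 54 (56.8% of all), 25 higher and 29 lower with a median of -0.03. At T12 63 were called (64.3% of all), 12 higher and 51 lower with a median of -0.33 against -0.07 for all genes. These were the most lower calls of any time point under TMM, DESeq2 size factors and total counts alike. At T16 52 were called (62.7% of all), 15 higher and 37 lower with a median of -0.15, and at T20 51 (58.9% of all), 22 higher and 29 lower with a median of -0.05. The medians of all genes at T4, T8, T16 and T20 were -0.04, -0.03, -0.07 and -0.05. The shares of all genes count both directions, and lower calls alone were not counted over all genes by time point. Total-count scaling gave 14 higher and 52 lower at T0, 11 and 48 at T16, and 12 and 36 at T20. Of the 77 genes called in the mean, 54 kept one sign at all 6 time points, and 32 tested genes passed at each of them.

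Single genes give the size of these differences. At T0 DNAH5 was at 0.287, 1.08 and 1.12 CPM in the Grain libraries and 3.27, 3.02 and 3.53 in the Hay libraries (-1.98 ± 0.24, adjusted p = 4.95e-09), where the first Grain library lay far under the others. CFAP221 at T8 was at 0.613, 0.623 and 0.464 against 1.97, 2.05 and 2.32 (-1.89 ± 0.24, adjusted p = 1.35e-08). At T12 DNAI3 was at 0.721, 0.935 and 0.924 against 2.88, 2.996 and 3.504 (-1.86 ± 0.15, adjusted p = 1.38e-13). The media did not overlap in any of these. Among genes of at least 1 CPM in a medium whose libraries did not overlap, DNAH5 and CFAP221 also had the largest differences at T4, at -1.32 ± 0.23 and -1.50 ± 0.24, and DNAH5 and CFAP70 at T16, at -1.61 ± 0.25 and -1.43 ± 0.17. At lower level, RSPH4A had larger called differences than DNAH5 at T0 and T16, at -2.06 and -1.76, and DNAH2 at T12, at -1.75. CFAP70 at T20 was at 3.64, 1.93 and 2.93 against 7.98, 8.00 and 8.15 (-1.50 ± 0.16, adjusted p = 4.21e-10).

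**Figure D3:**
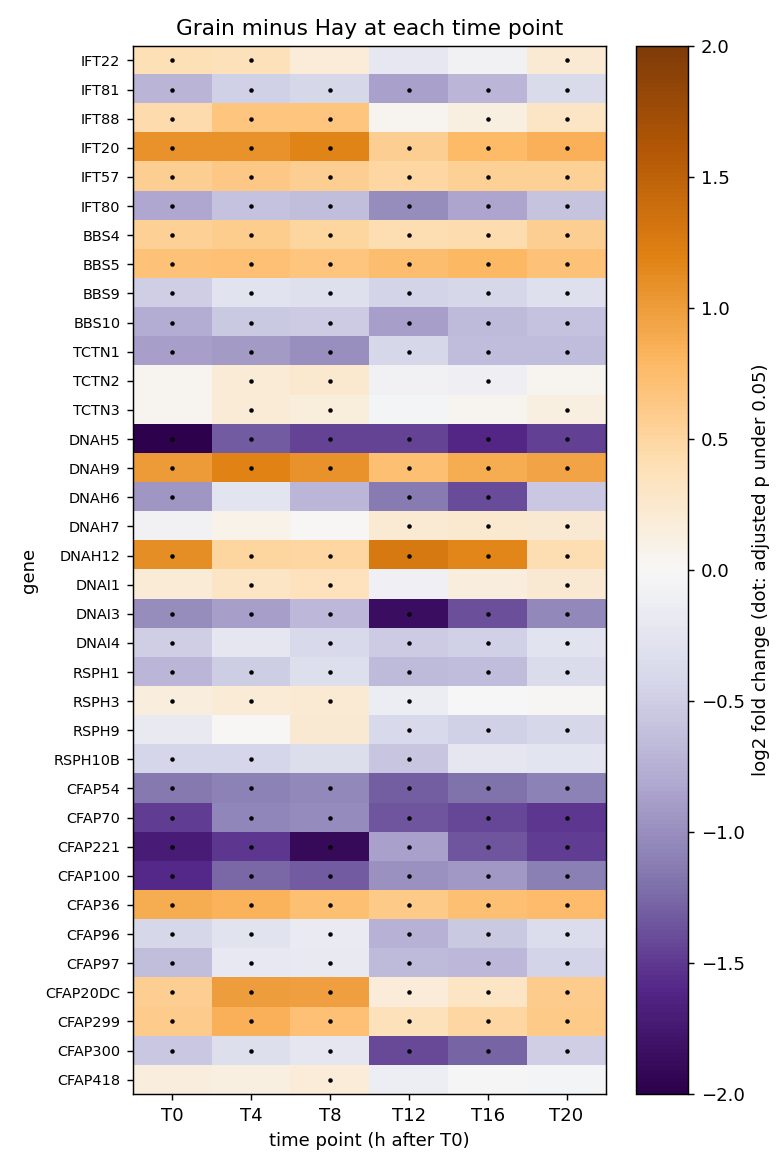
Log2 difference, Grain minus Hay (colour), at each time point (x axis) for 36 cilium genes (y axis), with a dot where the adjusted p is under 0.05. DNAH5, CFAP70 and CFAP54 are lower and BBS5, BBS4 and IFT57 higher at all 6 time points, while CFAP300 has its lowest differences at T12 and T16, and IFT88 is at 0.04 and CFAP20DC at 0.19 at T12.

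Whether the difference depended on time was tested next. It did for 38 cilium genes, against 32.6% of all genes. IFT88 was 47.4 ± 2.50, 53.2 ± 1.24 and 54.8 ± 0.941 CPM at T0, T4 and T8 in Grain and 38.0 ± 2.18 at T12 (SD, n = 3), while in Hay it was 34.6 ± 2.70, 33.7 ± 0.153, 34.7 ± 0.904 and 36.9 ± 1.01. The log2 difference was 0.66 ± 0.045 at T8 and 0.04 ± 0.046 at T12, where the media overlapped (time dependence adjusted p = 1.47e-10). IFT88 was 0.30 ± 0.046 higher in Grain again at T20. CFAP300, a protein needed for dynein arm assembly, was lower in Grain by most at T12, at 3.41, 3.65 and 3.32 CPM against 9.60, 9.20 and 9.02 (-1.42 ± 0.095), and by least at T8, at 10.9, 12.9 and 12.6 against 13.4, 14.6 and 14.6 (-0.22 ± 0.085, time dependence adjusted p = 2.77e-10). CFAP96 followed, with -0.17 ± 0.036 at T8 and -0.74 ± 0.037 at T12 (5.04e-10). IFT80 had differences between -0.58 ± 0.032 at T20 and -1.01 ± 0.032 at T12 (1.13e-09), with its Hay level between 210.3 and 224.9 CPM throughout.

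In IFT88, CFAP96 and IFT80 Grain moved more than Hay from T8 to T12, and CFAP300 was lower at T12 than at T8 in both media. TCTN1, named here after its values were seen, changed in Hay: it went from 83.7 ± 2.47 CPM at T8 to 53.8 ± 3.04 at T12, while Grain stayed at 42.0 ± 0.660 and 40.5 ± 1.39, and the difference went from -0.995 ± 0.042 to -0.41 ± 0.043 (time dependence adjusted p = 1.62e-09). Without the 6 libraries of T12, 22 cilium genes were called for time dependence in place of 38. The share of all genes called in that fit is not given here, so the drop is not a result about the cilium genes.

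Sums of the cilium genes were lower at T12 than at T8 in Grain. Transport and gate genes summed to 1115 ± 20.7 CPM at T8 and 1014 ± 5.64 at T12 in Grain (SD, n = 3), and to 1115 ± 7.60 and 1120 ± 3.56 in Hay. Axoneme genes summed to 791.4 ± 12.4 and 653.3 ± 5.86 in Grain and to 792.5 ± 6.46 and 728.1 ± 9.45 in Hay. Such sums are weighted to the most abundant genes. In Grain IFT80 went from 145.3 CPM at T8 to 104.6 at T12, while IFT57 went from 126.6 to 144.1 and IFT20 from 23.6 to 26.6. Sums of other genes by time point are not given here. The TMM factor of the Grain libraries was also lowest at T12, with a median of 0.864 against 1.053 at T8. Counts are divided by this factor, so the scaling raised CPM at T12 relative to T8. The reason for the lower factor was not tested. Under total-count scaling the T12 split was 7 higher and 68 lower.

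**Figure D4:**
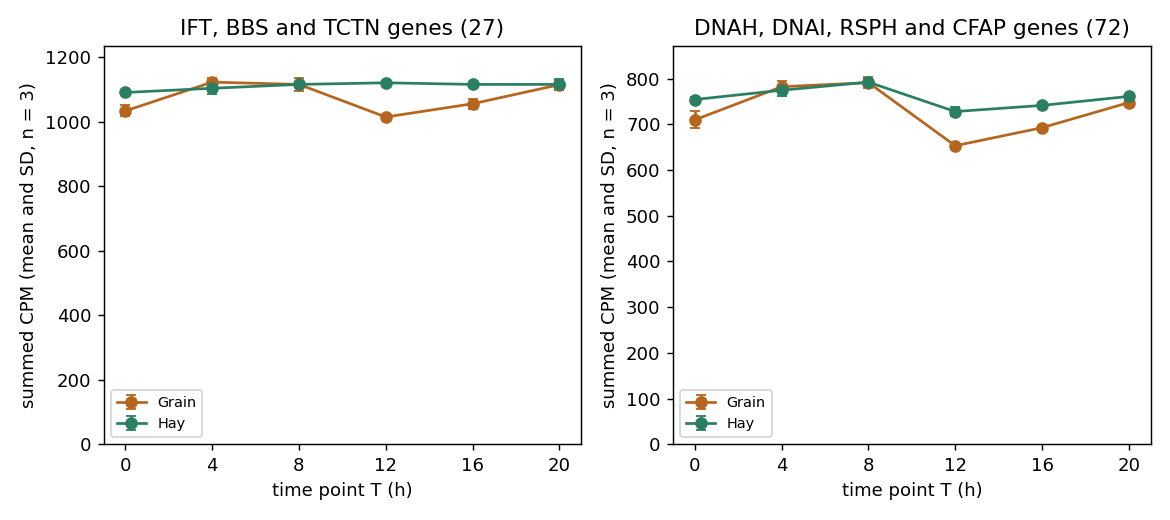
Summed CPM (y axis, mean and SD of 3 libraries, from 0) of transport and gate genes (left) and axoneme genes (right) by time point (x axis) in Grain and Hay. Grain is lowest at T12 in both panels, at 1014 and 653.3 CPM, and Hay stays at 1090 to 1120 CPM on the left.

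A 24 h cosine was fitted to each medium over the 20 h of sampling, which hold less than a full cycle. In Grain it was called for 34 cilium genes (31.8% of all genes) and in Hay for 15 (20.7% of all genes), with 6 called in both. IFT22, a small GTPase of IFT-B, led in Grain, at 19.1 ± 2.13, 19.0 ± 0.924, 18.4 ± 0.863, 14.1 ± 0.653, 14.2 ± 0.911 and 16.2 ± 1.71 CPM from T0 to T20, with a log2 amplitude of 0.25 ± 0.038 and a peak at 2.9 h (adjusted p = 4.17e-05). CFAP97, CFAP418 and IFT88 followed, with amplitudes of 0.29 ± 0.045, 0.25 ± 0.041 and 0.20 ± 0.032 and peaks at 4.0, 3.9 and 3.6 h. Of the 34 genes, 29 peaked between 0 and 6 h (85.3%), as did 49.2% of the 7157 genes called in Grain. The fit describes these 20 h and does not show that a pattern recurs.

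In Hay the strongest was TCTN2, at 41.9 ± 0.768, 39.1 ± 0.870, 36.9 ± 0.308, 49.4 ± 0.655, 49.0 ± 1.25 and 45.1 ± 1.24 CPM, with an amplitude of 0.20 ± 0.024 and a peak at 16.2 h (adjusted p = 1.5e-06). CFAP299, CFAP36 and IFT20 had amplitudes of 0.37 ± 0.052, 0.16 ± 0.024 and 0.32 ± 0.052 and peaks at 15.1, 13.8 and 14.7 h. Of the 15 genes, 9 peaked between 12 and 18 h (60%), as did 59.6% of the 4647 genes called in Hay.

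The 24 h component differed between the media for 11 cilium genes, against 11.3% of all genes. IFT88 was the clearest (adjusted p = 0.000136), peaking at 3.6 h in Grain and at 16.3 h in Hay, with amplitudes of 0.20 ± 0.032 and 0.11 ± 0.032. CFAP20DC had an amplitude of 0.26 ± 0.044 in Grain and 0.10 ± 0.044 in Hay, where it was not called (difference adjusted p = 0.000636), and IFT22 of 0.25 ± 0.038 and 0.11 ± 0.038 (0.00104). TCTN2 was the reverse, at 0.05 ± 0.024 in Grain and 0.20 ± 0.024 in Hay (0.00879).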

How the data were processed

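RNA from 36 libraries of cultured ovine ruminal epithelial cells was prepared with a TruSeq v2 kit and sequenced as paired reads, per the labels' protocols. The deposited table holds whole-number counts per gene, not normalized. HISAT2 2.2.1, SAMtools 1.20 and StringTie 2.1.5 are named per the submitters' processing notes, without a role. Neither the program behind the table nor its genome build is stated (not given in the sources used here). Row names have the form that StringTie's helper script writes, whose counts are derived from coverage, so the values may be such estimates and not reads counted one by one, and the comparison with sampling noise is then approximate. In all 36 pairs of replicates the counts differed by more than sampling noise, with a chi-square of 4.86 to 25.7 for each degree of freedom.

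Groups came from the labels: medium and time point, with 3 libraries each. Genes passing filterByExpr over 12 groups (minimum count 10, minimum total 15) were scaled by TMM and fitted over all libraries with edgeR 4.0.16 (limma 3.58.1, R 4.3.3) by the quasi-likelihood test. Contrasts were Grain minus Hay over the mean of 6 time points, at each time point and their differences over time. A second model held a cosine and sine of 24 h in each medium. P-values were adjusted by Benjamini-Hochberg over all 22488 tested genes, with a threshold of 0.05, and every adjusted p in the text is from this test unless another is named. Errors after ± are standard errors for log2 differences and amplitudes, and SD for CPM. The script was tested on simulated counts. Overlaps came from a RefSeq gene table (ARS-UI_Ramb_v3.0), where all 99 genes were found, and no coordinate was used otherwise. Promoter motifs were not analysed here.

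The genes given values are, per family, up to 4 called genes with the largest log2 difference and at least 1 CPM in a medium, and the one with the highest mean; at each time point the 2 largest with libraries apart and at least 1 CPM in a medium; and the 4 smallest p for time dependence, for each 24 h component and for their difference. Of each list, up to 3 genes with the smallest p and partners of named genes were eligible, and other named genes were picked after their values were seen. The genes, lists and tests were chosen with earlier results of these data known. Alternatives were DESeq2 1.42.0, its size factors, no low-count filter, a minimum fold of 1.5, a replicate block, libraries or time points left out, time points fitted alone, any difference between time points, a linear trend, and genes without overlaps. Total-count scaling was added after seeing the data.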

Additional observations from a re-analysis of the deposited data

Results flagged for a closer look

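Among the 36 genes picked by the naming rule, the difference between Grain and Hay depended on time for 22. The test was the quasi-likelihood test of all 5 contrasts of the time points in edgeR. IFT88, CFAP300, CFAP96 and IFT80 were picked for a small p in this same test, so the choice raised the share. Over all tested cilium genes the count was 38 of 94, against 32.6% of all tested genes. The adjusted p was 1.47e-10 for IFT88, 1.13e-09 for IFT80, 3.27e-05 for IFT81, 0.000481 for IFT20 and 0.00106 for IFT22. Among BBS and tectonic genes it was 0.0177 for BBS10, 0.0183 for BBS4, 0.0036 for BBS9, 1.62e-09 for TCTN1, 3.27e-06 for TCTN2 and 0.00211 for TCTN3. Among dynein and spoke genes it was 3.26e-05 for DNAH12, 0.044 for DNAH7, 0.000118 for DNAI3, 0.0279 for RSPH9 and 0.000306 for RSPH3. Among CFAP genes it was 0.00298 for CFAP36, 2.77e-10 for CFAP300, 5.04e-10 for CFAP96, 3.77e-07 for CFAP97, 0.0192 for CFAP299 and 1.84e-09 for CFAP20DC.

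Of the same 36 genes, the 24 h component differed between the media for 9, by the edgeR test of the interaction. IFT88, CFAP20DC, IFT22 and TCTN2 were picked for a small p in that test, so the choice raised this share too. Over all tested cilium genes the count was 11 of 94, against 11.3% of all tested genes. The adjusted p was 0.000136 for IFT88, 0.00104 for IFT22, 0.0456 for BBS4, 0.0273 for TCTN1, 0.00879 for TCTN2, 0.0249 for RSPH9, 0.0231 for RSPH3, 0.0422 for CFAP97 and 0.000636 for CFAP20DC. It was also called for IFT52 (0.00975) and IFT140 (0.0373), which the rule did not pick.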

How the results depend on the processing

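The 56 gene results named by the rule were recomputed under each alternative, giving 2196 values. Of these, 2170 kept their side of the threshold and, where the test has one, their direction. A further 22 fell short of the threshold and 4 changed sign. The results were picked for a large difference, a high level or a small p, and many fits left out only 1 library, so few values had room to change. The 4 were DNAH7 at -0.001, RSPH3 at -0.047, TCTN2 at -0.065 and TCTN3 at -0.031, all under total-count scaling. There RSPH3, TCTN2 and TCTN3 passed as lower in the same edgeR test (adjusted p = 0.0322, 0.000208 and 0.0483). RSPH3 and TCTN2 also missed the threshold without the libraries of T4 (adjusted p = 0.0512 and 0.158) or T8 (0.0953 and 0.521), and with DESeq2 (0.0657 and 0.178).

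Against a minimum fold of 1.5, calls numbered 24 for the mean, and 18, 14, 10, 20, 15 and 10 from T0 to T20. Among genes overlapping no other gene, calls numbered 40 for the mean, 32, 27, 28, 31, 27 and 24 from T0 to T20, 18 for time dependence, 20 and 8 for the 24 h component in Grain and Hay, and 7 for its difference; fewer genes enter here by construction. An added linear trend gave 55 calls in Grain. Any difference between time points gave 62 in Grain and 36 in Hay. Without the low-count filter the 24 h difference gave 7. The causes of these changes were not tested. Counts in this section stand without the share of all genes under the same setting. Their rises and falls are therefore not a result about the cilium genes.

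With single libraries or time points left out, calls were 75 to 81 for the mean, 50 to 57 at T0, 47 to 51 at T4, 48 to 52 at T8, 53 to 59 at T12, 48 to 51 at T16, 44 to 49 at T20, 22 to 42 for time dependence (22 without T12), 27 to 40 and 12 to 18 for the 24 h component in Grain and Hay, and 8 to 15 for its difference. The replicate numbers gave no strong sign of pairing: no correlation of same-numbered libraries passed 0.1 (highest 0.073). Of 36 libraries, 18 correlated best with their own number, out of 3 numbers. These values do not settle whether the numbers pair the samples. With the replicate block, calls were 77 for the mean, 37 for time dependence, 31 and 15 for the 24 h component and 10 for its difference. Genes under 1 CPM rest on few reads, and their standard errors are the widest.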
